A study of Mus musculus with 3 samples.

Results

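The genes described here are 52 regulators of chromatin, taken by name from the gene table of 55536 annotated mouse genes. They are members of the Polycomb repressive complexes PRC1 and PRC2, the KMT2 (trithorax-type) histone methyltransferases, the KDM histone demethylases, Setd2 and Dot1l, the histone deacetylases (HDACs) with the sirtuin Sirt1, the histone acetyltransferases (HATs) and the BAF and PBAF remodellers. All 52 names matched 1 annotated gene each, all 52 of them protein-coding, and the rule that selects them uses names alone, although the list was drawn up with earlier results of these data known. PolyA-selected RNA was sequenced from primary cells labelled inflammation-experienced regulatory T cells, from a male adult mouse of 16 weeks of the strain Foxp3GFP-DTRCD4CreERT2R26tdTomato. The strain name reads as a GFP and diphtheria toxin receptor under Foxp3, a tamoxifen-dependent Cre under Cd4 and a tdTomato reporter, and every library carries all of these. The 3 libraries form 1 group. The labels number them as technical replicates 1, 2 and 3, all of the same biological replicate and donor. The labels give no second condition and do not say how the inflammation was brought about. An SD or p-value below therefore measures the spread between libraries (n = 3) and not that between animals.

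PRC2 methylates histone H3 at lysine 27, and PRC1 binds that mark through its CBX subunits and ubiquitinates histone H2A, which keeps genes silent. Trithorax-type enzymes methylate histone H3 at lysine 4 and oppose Polycomb, acetyltransferases and deacetylases add and remove acetyl groups, and BAF complexes move nucleosomes with energy from ATP. In regulatory T cells Foxp3 is known to bind chromatin regulators, and Ezh2 is known to be needed for these cells to keep their function after activation.

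The first 4 sequences show what a coding stretch looked like in members that were low or not low in library 3. Each is the GC-richest 100-base coding stretch within 1 exon of the transcript with the most expected counts, from GENCODE M21 on mm10, written in the sense of the gene with G and C in capitals. Ring1 (exon 5, chr17:34022459-34022558, minus strand) and Smarcc1 (exon 1, chr9:110132129-110132228, plus strand) were low in library 3. Suz12 (exon 1, chr11:79993337-79993436, plus strand) and Mtf2 (exon 15, chr5:108106607-108106706, plus strand) were not. G and C made up 76%, 81%, 87% and 52% of the stretches of Ring1, Smarcc1, Suz12 and Mtf2.
Ring1: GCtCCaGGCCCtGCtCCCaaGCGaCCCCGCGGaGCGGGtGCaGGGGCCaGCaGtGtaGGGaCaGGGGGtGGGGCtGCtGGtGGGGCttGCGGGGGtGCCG
Smarcc1: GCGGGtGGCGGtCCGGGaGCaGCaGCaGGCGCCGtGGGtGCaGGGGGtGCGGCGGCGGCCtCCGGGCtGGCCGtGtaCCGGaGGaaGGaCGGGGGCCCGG
Suz12: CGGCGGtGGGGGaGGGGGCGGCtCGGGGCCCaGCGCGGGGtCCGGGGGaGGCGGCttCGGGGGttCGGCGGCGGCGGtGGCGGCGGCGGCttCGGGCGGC
Mtf2: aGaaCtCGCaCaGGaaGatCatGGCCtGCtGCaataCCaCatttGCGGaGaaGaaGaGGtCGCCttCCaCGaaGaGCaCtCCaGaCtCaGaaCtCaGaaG

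The other stretch set compares Hdac1 with its pseudogene and its paralogue. A stretch of 60 bases in exon 8 of Hdac1 (chr4:129519086-129519145, minus strand) is repeated letter for letter in Gm10093, a processed pseudogene (chr17:78492326-78492385, plus strand), while the closest stretch of Hdac2 (exon 8, chr10:36993791-36993850, plus strand) differs at 8 bases. Capitals mark the bases at which Hdac1 and Hdac2 differ. The longest run that the coding sequences of Hdac1 and Hdac2 share is 17 bases, so reads of 50 bases tell those genes apart.
Hdac1: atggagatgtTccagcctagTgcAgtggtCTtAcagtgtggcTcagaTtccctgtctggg
Gm10093: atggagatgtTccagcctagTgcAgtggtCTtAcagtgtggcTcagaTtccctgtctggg
Hdac2: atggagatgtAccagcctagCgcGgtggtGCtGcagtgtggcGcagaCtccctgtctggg

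Library 1 held 20942875 expected counts in annotated genes, library 2 held 18402479 and library 3 held 17494966. The 8 regulatory T cell and T cell markers were all detected, with a median of 307.6 TPM (transcript abundance scaled for length and depth) and Foxp3 lowest at 77.6, 86.2 and 59.2 TPM. Markers of other cells were present too. B cell genes were detected for 5 of 5, with Ighm at a mean of 1486 TPM and the other 4 at 4.30 to 45.1 TPM, and myeloid genes for 4 of 5, at up to 14.2 TPM. Erythroid genes were detected for 4 of 5, and their summed level was 1742 TPM in library 3, against 1382 and 1091 TPM in libraries 1 and 2. Of the CD8 genes, Cd8b1 stood at 15.8, 21.1 and 17.0 TPM and Cd8a at 0.94, 1.24 and 0.87 TPM in libraries 1, 2 and 3. The part of such cells in the levels below was not tested, and in bulk RNA a lower level per cell cannot be told apart from fewer cells of a type.

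These regulators were broadly transcribed. Detection, set at 1 TPM or more in every library, held for 51 of 52 (98.1%), against 47.4% of all protein-coding genes, and the exception was Phf19. Their median level was 28.6 TPM, close to the 25.9 TPM of detected protein-coding genes. By library the median was 28.8 TPM in library 1, 31.1 TPM in library 2 and 25.8 TPM in library 3, a mean of 28.6 ± 2.68 (SD, n = 3). At the top, 5 genes passed 100 TPM, namely Rbbp4, Hdac1, Rbbp7, Smarce1 and Kdm5a, and 9 genes lay under 10 TPM. PRC2 had the highest median among groups of more than 3 genes, 78.0 TPM, followed by BAF and PBAF at 34.0 TPM and the KDM demethylases at 33.8 TPM. The class I deacetylases, a group of 3 genes, had a median of 84.1 TPM. In the order of mean levels, only 4 of the 51 steps between neighbours were larger than the combined SD of both genes. These were the steps below Rbbp7, below Smarce1, below Kdm5a and above Phf19, so most neighbours cannot be ranked. That SD covers the spread between libraries alone. It does not cover differences between the 2 gene tables (described below), and in the second one Smarce1 kept 5.89% of its expected count.

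**Figure D1:**
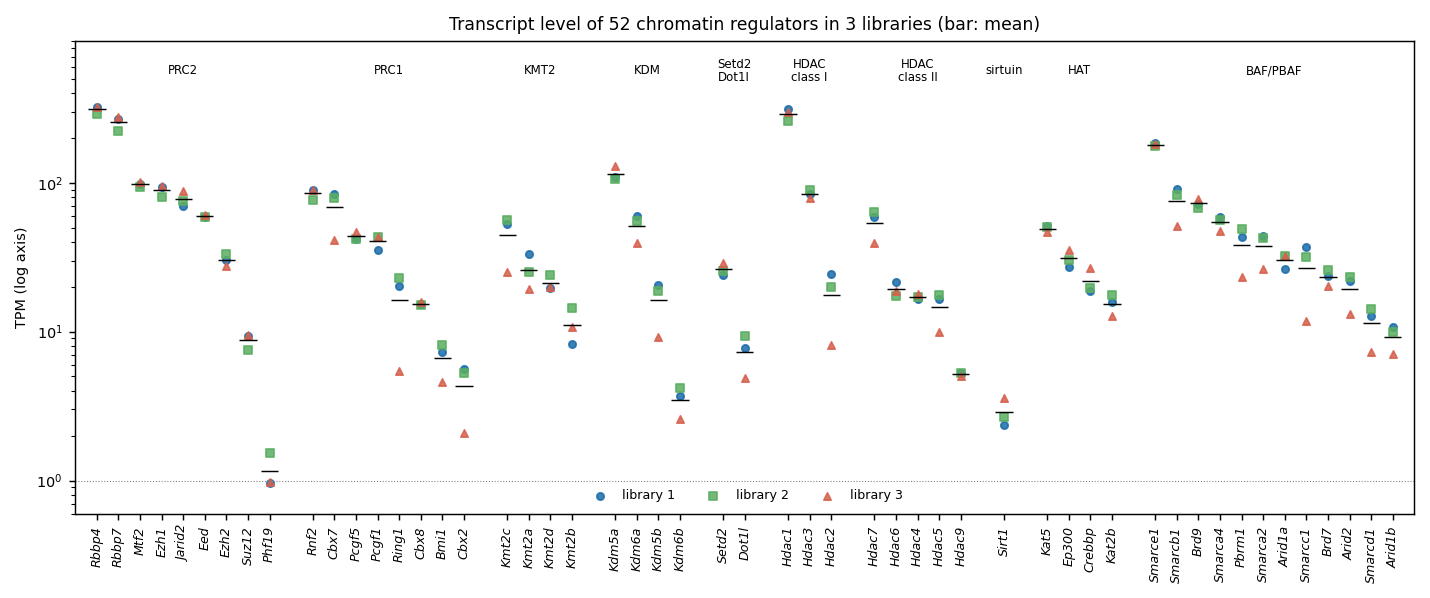
Level of each of the 52 regulators in TPM (log axis) in the 3 libraries, grouped by complex, where points are libraries, bars are means and the dotted line is 1 TPM. Phf19 alone sits at the dotted line, Rbbp4 and Hdac1 are near 300 TPM, and the triangles of library 3 lie well below the other points for Ring1, Hdac2, Smarcc1 and Cbx2.

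The PRC2 genes were led by their histone-binding subunits, and the methyltransferase Ezh1 was higher than Ezh2. Rbbp4, a histone chaperone that PRC2 shares with deacetylase complexes, stood at 323.7, 289.6 and 324.3 TPM in libraries 1, 2 and 3, and its close relative Rbbp7 at 266.6, 224.3 and 277.9 TPM. Ezh2, the more active methyltransferase, stood at 30.3, 33.5 and 27.4 TPM. Ezh1, its paralogue of quiescent cells, stood at 94.4, 80.6 and 95.1 TPM, so the ranges did not overlap. The log2 ratio of Ezh2 to Ezh1 (TPM + 1) was -1.54 ± 0.27 (SD, n = 3), a 2.90-fold difference. Calling a pair needed 1 sign in every library, a mean log2 ratio over 1 in size and a mean over 2 SD, and this pair met all of these.

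The core of PRC2 was uneven. Eed, which reads the methylated lysine, was measured at 59.3, 59.0 and 60.4 TPM, the steadiest of the complex. Suz12, which holds the complex together, was at 9.32, 7.58 and 9.53 TPM, lower than Eed in every library. Of the accessory subunits, Mtf2, which helps PRC2 to bind DNA, stood at 97.7, 93.7 and 101.3 TPM. Its paralogue Phf19 had 0.96, 1.54 and 0.97 TPM. Mtf2 exceeded Phf19 by 5.52 ± 0.26 on the log2 scale of TPM + 1, the widest gap among the 23 pairs. The added 1 TPM weighs heavily on Phf19 and makes this ratio smaller than that of the TPM values. Jarid2, the subunit that links PRC2 to target sites, had 88.3 TPM in library 3, against 70.3 and 75.5 TPM in libraries 1 and 2.

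Among PRC1 genes the catalytic subunit Rnf2 was higher than its paralogue Ring1, and Cbx7 was the leading CBX gene. Rnf2 had 89.6, 77.0 and 89.4 TPM in libraries 1, 2 and 3, and Ring1 had 20.3, 22.9 and 5.42 TPM. Their log2 ratio was 2.54 ± 1.12, and its size rests on library 3, in which it was 3.82, against 2.09 and 1.71 in libraries 1 and 2. The pair was not called without library 1 (2.76). Cbx7, a reader of methylated lysine 27, was measured at 84.7, 78.9 and 41.2 TPM. Cbx2 was measured at 5.62, 5.25 and 2.07 TPM. Both were lowest in library 3, and their log2 ratio of TPM + 1 was 3.72 ± 0.06. The added 1 TPM weighs more on the lower gene, Cbx2. In scaled counts, library 3 differed from the mean of libraries 1 and 2 by -1.35 for Cbx2 and -1.03 for Cbx7 (log2). Cbx8 had 15.2, 15.2 and 15.9 TPM and so lay between them, 2.01 ± 0.60 below Cbx7 on the log2 scale. In the second gene table, of whole-number counts not scaled for length, Cbx7 over Cbx8 was 0.21 and Rnf2 over Ring1 was 1.78, and neither was called.

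The PCGF subunits set the type of PRC1. Pcgf1, of a variant PRC1, had 35.6, 43.2 and 42.9 TPM. Pcgf5, of another variant, had 42.1, 41.9 and 46.9 TPM. Bmi1, a PCGF subunit of canonical PRC1, had 7.27, 8.18 and 4.58 TPM, below both in every library. The log2 ratio of Bmi1 was -2.46 ± 0.45 to Pcgf1 and -2.57 ± 0.47 to Pcgf5. CPM, the scaled counts without length, gave -0.42 for Bmi1 over Pcgf1, short of the pair rule, since the Pcgf1 transcript has 866 bases and that of Bmi1 has 3594.

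The KMT2 methyltransferases were all detected between 11.1 and 44.7 TPM. Kmt2a, the founding mammalian trithorax relative, had 33.4, 25.3 and 19.3 TPM in libraries 1, 2 and 3. Kmt2b had 8.25, 14.5 and 10.7 TPM, and the ratio of Kmt2a to Kmt2b (1.15 ± 0.64) was not called. Unlike its TPM, the expected counts of Kmt2a were nearly even when scaled, at 202.1, 197.5 and 198.2 CPM. The effective length the authors' table gives for Kmt2a was 15556 bases in library 3, against 9426 and 11841 bases in libraries 1 and 2. Its transcript Kmt2a-206, of 521 bases, took 5.38% of the gene's TPM in library 3, against 25% and 26.2%.

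Kmt2c and Kmt2d methylate histone H3 at enhancers. Kmt2c had 25.1 TPM in library 3, against 53.1 and 55.8 TPM in libraries 1 and 2. Kmt2d had 19.9 TPM in library 3, against 19.7 and 23.9 TPM. Their ratio was 0.97 ± 0.57 and was not called, though it was without library 3 (1.29). As for Kmt2a, a shorter transcript of Kmt2c moved with the library. Unlike for Kmt2a, the scaled counts of Kmt2c were also lowest in library 3, at 190.7, 232.2 and 141.6 CPM in libraries 1, 2 and 3. Kmt2c-206, of 2646 bases, took 17.2% of the TPM in library 3, against 49.3% and 46.6%, and the full-length Kmt2c-201 took 36.2%, against 16.9% and 22.3%.

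Among the demethylases, Kdm6a and Kdm5a were higher than their paralogues Kdm6b and Kdm5b. Kdm6a, which removes methyl groups from lysine 27, had 59.4, 55.3 and 39.4 TPM. Kdm6b, the inducible enzyme of the same activity, had 3.70, 4.16 and 2.60 TPM. Kdm6a exceeded Kdm6b by 3.54 ± 0.13 on the log2 scale of TPM + 1, with a spread far smaller than its size. That is an 11.6-fold difference of TPM + 1, and the added 1 TPM makes it smaller than the ratio of the TPM values. Kdm5a, which removes methyl groups from lysine 4, had 109.5, 106.3 and 128.8 TPM, and Kdm5b had 20.7, 18.7 and 9.24 TPM, a log2 ratio of 2.82 ± 0.73. The ratio of Kdm6a to Ezh2, the opposing enzymes of lysine 27, was 0.72 ± 0.22 and was not called, although CPM gave 1.62. Setd2, which methylates lysine 36, had 24.0, 25.7 and 28.8 TPM, and Dot1l, which methylates lysine 79, had 7.74, 9.37 and 4.86 TPM.

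Of the class I deacetylases, Hdac1 was the highest by TPM, with 311.3, 262.0 and 297.6 TPM in libraries 1, 2 and 3. Hdac3, the catalytic subunit of the NCoR and SMRT corepressor complexes, had 83.5, 89.6 and 79.3 TPM. Hdac2, the paralogue that can replace Hdac1, had 24.5, 20.04 and 8.18 TPM, so it lay far below both in each library. The log2 ratio was 4.09 ± 0.81 for Hdac1 over Hdac2 and 1.77 ± 0.20 for Hdac1 over Hdac3. Both ratios depended on the table. In the second gene table Hdac1 over Hdac2 was 0.83 and not called, and Hdac1 over Hdac3 was -1.25. There Hdac1 had 414, 387 and 438 counts, 6.31% of its expected count, while Hdac2 kept 71.7%. Neither that table nor CPM of the expected counts is scaled for length, and in CPM both pairs were still called.

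The class II deacetylases were led by Hdac7, a class IIa enzyme known for its role in developing T cells. Hdac7 had 58.8, 63.5 and 39.6 TPM. Hdac4 had 16.5, 17.0 and 17.9 TPM, Hdac5 had 16.5, 17.7 and 9.94 TPM, and Hdac9 had 5.24, 5.29 and 5.05 TPM. Hdac7 exceeded each of these by the pair rule, with log2 ratios of 1.57 ± 0.41, 1.82 ± 0.06 and 3.12 ± 0.33 for Hdac4, Hdac5 and Hdac9. Over Hdac4 the ratio in CPM was 0.80, short of the rule. Hdac6, a deacetylase of tubulin, had 21.7, 17.3 and 18.8 TPM. Sirt1, a deacetylase that uses NAD, was low at 2.36, 2.69 and 3.57 TPM.

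The acetyltransferases spanned a narrow range. Kat5, the catalytic subunit of the TIP60 complex, had 51.0, 50.1 and 46.8 TPM, and Kat2b, also known as PCAF, had 15.9, 17.6 and 12.7 TPM. Ep300 had 27.3, 30.4 and 35.5 TPM and its paralogue Crebbp 18.9, 19.6 and 26.8 TPM, with a log2 ratio of 0.50 ± 0.11 that was not called. Both coactivators were highest in library 3.

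All 12 BAF and PBAF genes were detected, from 9.21 TPM for Arid1b to 180.2 TPM for Smarce1. Smarce1, a DNA-binding subunit of BAF, had 184.2, 175.4 and 181.1 TPM in libraries 1, 2 and 3. Its rank is uncertain, since in the second gene table it had 172, 157 and 158 counts, 5.89% of its expected count. Coding transcripts took 30.2% of its TPM. The ATPases Smarca4 and Smarca2 were close. Smarca4 had 58.8, 56.6 and 47.3 TPM and Smarca2 had 44.0, 42.7 and 26.4 TPM, a log2 ratio of 0.54 ± 0.24 that was not called. In CPM the ratio was 1.15 and was called. Smarcb1, a core subunit, had 51.2 TPM in library 3, against 91.5 and 82.8 TPM in libraries 1 and 2.

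The subunits that define the BAF subtypes were unequal. Arid1a, of canonical BAF, had 26.3, 32.3 and 32.2 TPM. Its alternative Arid1b had 10.7, 9.93 and 7.04 TPM, and Arid1a exceeded it by 1.63 ± 0.41 on the log2 scale. Arid2, of PBAF, had 21.8, 23.2 and 13.2 TPM, and its ratio to Arid1a was not called (0.65 ± 0.51 for Arid1a over Arid2). Brd9, of the non-canonical BAF complex, had 71.6, 68.1 and 78.2 TPM. Brd7, of PBAF, had 23.7, 25.9 and 20.2 TPM, and the ratio of Brd7 to Brd9 was -1.61 ± 0.27. Pbrm1, the third subunit specific to PBAF here, had 23.4 TPM in library 3, against 43.2 and 48.8 TPM in libraries 1 and 2. Summed over the 12 genes the level was 499.4 TPM in library 3, against 625.7 and 611.7 TPM in libraries 1 and 2.

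**Figure D2:**
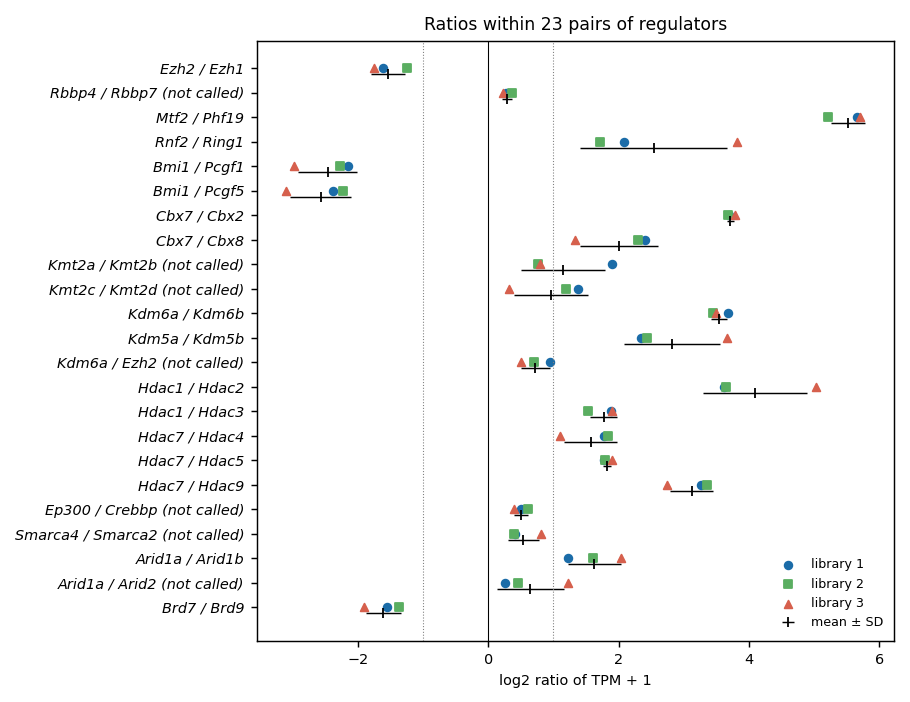
Log2 ratio of TPM + 1 for 23 pairs of paralogues or alternative subunits, where points are libraries and the tick with its bar is the mean ± SD (n = 3). The rule called 16 pairs, and Mtf2 over Phf19 is widest at 5.52. On this scale of TPM + 1, Kdm6a over Kdm6b and Cbx7 over Cbx2 are tight. Rnf2 over Ring1 and Hdac1 over Hdac2 lie further from 0 in library 3.

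The expected counts of most regulators differed between the libraries by more than counting error. By a chi-square test against Poisson sampling on counts scaled with edgeR's TMM factors, at a Benjamini-Hochberg adjusted p below 0.05, 44 of 52 (84.6%) differed. Over all 14877 genes tested the percentage was 63.9%, and over protein-coding genes averaging 100 counts or more it was 78.2%. Library 3 was the lowest for 23 of the 44 (44.2% of 52, against 29.8% of all tested genes and 38.4% of those protein-coding genes). It was the highest for 14 (26.9% of 52, against 24.3% and 28.9%). Without library 3 the number of members that differed was 15, where 30.2% of all tested genes differed. It was 38 without library 1 and 38 without library 2, where 51.5% and 54% of all tested genes differed. By the second gene table, 36 members differed, where 56.8% of all tested genes did, with library 3 lowest for 23 (30.9% of all tested genes) and highest for 10 (21.7% of all tested genes). The members thus differed between libraries about as often as other protein-coding genes of that depth. The genes that did not pass were Phf19, Kat5, Brd7, Kmt2a, Hdac9, Cbx8, Eed and Sirt1.

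Each of the 8 widest deviations of 1 library was a low value in library 3. The deviation is the log2 CPM in library 3 minus the mean of libraries 1 and 2, and the ± here is counting error alone. For Ring1 (chromosome 17, 34020792 to 34024680, mm10, minus strand) counts gave -1.98 ± 0.13, with an adjusted p of 1.4e-57 in the chi-square test on edgeR-scaled counts. Hdac2 (chromosome 10, 36974544 to 37001889, plus strand) had 140 expected counts in library 3, against 561 and 444, a deviation of -1.75 ± 0.13. Smarcc1 (chromosome 9, 110117708 to 110240178, plus strand), a scaffold subunit of BAF, had 11.9 TPM in library 3, against 37.2 and 31.8 TPM, and deviated by -1.46 ± 0.07. Cbx2, Smarca2, Hdac5, Kdm5b and Cbx7 followed at -1.35, -1.25, -1.23, -1.11 and -1.03. Next was Smarcd1, an accessory subunit of BAF, at -1.001, with 7.32 TPM in library 3, against 12.8 and 14.2 TPM. A deviation below -1 held for 9 of 52 members (17.3%), against 13.6% of all tested genes. Among protein-coding genes averaging 100 counts or more it held for 15.2%.

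Upward deviations of library 3 were smaller. Sirt1 had the widest at 0.38 ± 0.17, which did not pass (adjusted p 0.077 in the chi-square test on edgeR-scaled counts). Suz12 deviated by 0.32 ± 0.09, Hdac4 by 0.30 ± 0.05 and Kdm5a by 0.28 ± 0.02, and these 3 passed. In PRC2, 6 of the 9 genes passed with library 3 highest and 1 with library 3 lowest, where all tested genes gave 24.3% highest and 29.8% lowest. That 1 gene was Ezh2, at -0.44 ± 0.07. Among the 6, the widest deviation of Ezh1, Mtf2 and Rbbp7 was a low value in library 2 (-0.15, -0.20 and -0.24). Without library 2, Ezh1 and Rbbp7 no longer passed. In BAF and PBAF, 8 of 12 passed with library 3 lowest and 2 with it highest, namely Smarce1 and Brd9. The difference between the complexes was not tested. With the trend on local GC content removed (described below), these counts were 4 highest and 0 lowest for PRC2, and 4 lowest and 4 highest for BAF and PBAF, whose median deviation was then 0.03, against -0.51 without that step. With that trend removed, library 3 was highest for 24.4% and lowest for 23.9% of all tested genes. For PRC1, library 3 was lowest in 4 of 8 genes and highest in 2. Setd2 shows that the scale matters, since its scaled counts were lowest in library 3 (-0.16 ± 0.04) while its TPM was highest there.

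**Figure D3:**
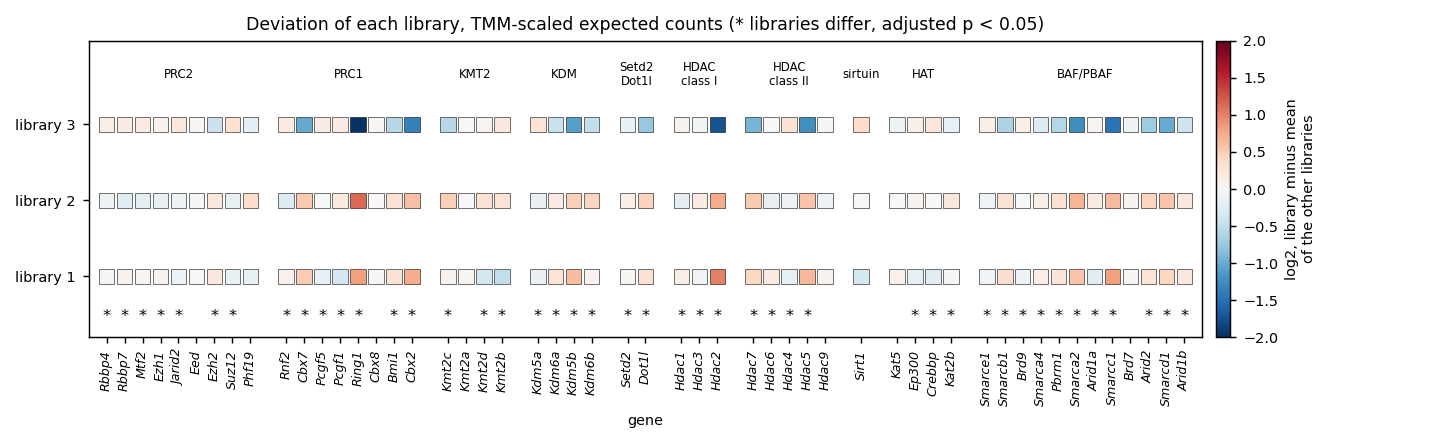
Log2 difference of each library from the mean of the other libraries for the 52 regulators, from TMM-scaled expected counts, where blue is lower, red is higher and an asterisk marks genes whose libraries differed. The dark blue squares of Ring1, Hdac2, Smarcc1 and Cbx2 are in library 3, the PRC2 squares of library 3 are mostly pale red, and 8 genes have no asterisk.

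The deviation of library 3 moved with local GC content, taken as the GC share of the richest window of 200 bases in the leading transcript. Across 27 members under 70%, library 3 was called lowest for 7 and highest for 11. Across 16 members from 70% to under 80%, it was called lowest for 12 and highest for 0, and 8 of the 16 lay over 2-fold below libraries 1 and 2. Across 9 members at 80% or more, it was called lowest for 4 and highest for 3. Protein-coding genes averaging 100 counts or more gave the same order of shares. Library 3 was called lowest for 75% of members and 80.7% of those genes in the middle band, for 25.9% and 23% below it, and for 44.4% and 40.5% above it. It was called highest for 5.95% of those genes in the middle band, for 40.7% of members and 37.7% of genes below it, and for 33.3% and 19.9% above it. In the middle band 44.6% of those genes lay over 2-fold below libraries 1 and 2, close to the members. These bands were chosen after the values were seen. Over all 52 members Spearman's rho was -0.39, against -0.53 over 9305 protein-coding genes, and the genes share the same 3 libraries. Over 89 other subunits of the same complexes (the partners described below) it was weaker, at -0.15. With the GC content of the whole transcript, rho was -0.32 for members, -0.34 for partners and -0.31 for those protein-coding genes.

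Single members show the shape of this relation. The 8 members with the widest deviations had local GC contents from 72.5% (Smarca2) to 80% (Hdac2). By that choice all other members deviated less, inside the range and outside it. Inside it, Smarcd1 (78%) deviated by -1.001 and Dot1l (80%) by -0.76, but Eed and Brd7 (79.5% each) by 0.03 and -0.095. Above the range, Crebbp at 90% deviated by 0.24, Kmt2a at 88% by -0.01, Suz12 at 84% by 0.32 and Arid1a at 82.5% by 0.05. Bmi1 also lay at 84% and deviated by -0.58. Hdac7 was low in library 3 (-0.93) with a local GC content of 62%. That value belongs to its leading transcript by TPM, Hdac7-211, which retained an intron and took 17.2% of the counts. In Hdac7-208, which led by counts, the GC-richest coding stretch of 100 bases had 74%, but that is a different measure. The leaders by TPM and by counts also differed for other members. By the coding measure Kmt2c-201 had 80% and Pbrm1-207 66%, and both genes were low in library 3. Kdm5a-201 had 71%, Cbx8-201 72%, Smarce1-201 64%, Rbbp4-201 54%, Mtf2-201 52% and Pcgf5-211 48%, and none of these genes was low there. The part of GC content in the low value of Hdac7 was not tested. With the trend on local GC content removed, 36 members differed (58.7% of all tested genes did), 32 of them among the 44, and library 3 was lowest for 16 and highest for 16. All 8 of the widest deviations were smaller but still called. They were -1.11 for Ring1, -1.26 for Hdac2, -0.73 for Smarcc1, -0.81 for Cbx2, -0.45 for Smarca2, -0.37 for Hdac5, -0.38 for Kdm5b and -0.26 for Cbx7. Among low values that turned, Kmt2c became 0.29, Pbrm1 0.27 and Kdm6b 0.40, each with an adjusted p below 0.05. The step also made 4 members differ that had not been called before it. These were Eed at 0.572, Brd7 at 0.443, Kmt2a at -0.265 and Kat5 at -0.179.

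**Figure D4:**
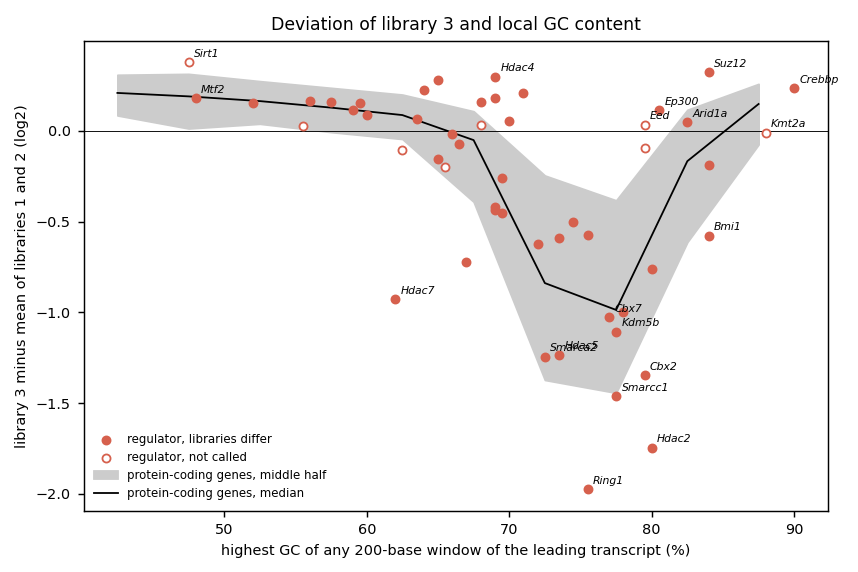
Deviation of library 3 (log2) against local GC content in percent (richest window of 200 bases), with the 52 regulators as points and protein-coding genes as the median (line) and interquartile range (band) of 5-percent bins. The line drops to -0.99 between 75% and 80% and returns above 0 at 85% to 90%; Ring1 and Hdac2 lie below the band and Eed above it.

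Transcript models divided the level of many genes. The leading transcript took a median of 53.7% of a gene's TPM, or 69.7% of its expected counts when led by counts, and was the same in all 3 libraries for 42 of 52 genes. For 46 genes it was annotated as protein-coding and for 6 it was not. Rbbp4-203, a processed transcript of 722 bases, took 65.2% ± 1.76 (SD, n = 3) of the TPM of Rbbp4 but 22.4% of its counts, and the coding Rbbp4-201 took 72.9% of the counts. In Smarce1 and Cbx8 the leaders were also processed transcripts, at 34.2% ± 1.68 and 50.2% ± 10.9 of TPM. The leader of Hdac7 retained an intron and took 44.7% in library 3, against 22.8% and 31.7%.

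Kdm5a and Sirt1 were led by transcripts annotated for nonsense-mediated decay, a pathway that degrades RNA with an early stop codon. Kdm5a-206 took 50.2% ± 2.75 of the TPM of Kdm5a, and coding transcripts took 48.5% of its counts. Sirt1-205 took 60.9%, 46.3% and 62.8% of the TPM of Sirt1 in libraries 1, 2 and 3, and coding transcripts took 24.9% of its counts. Sirt1 was the 1 gene whose leader by counts was not coding. Over the 52 genes coding transcripts took a median of 74.2% of TPM and 86.7% of counts. In Hdac2 the coding leader took 50.8% of TPM in library 3, against 80.7% and 87.9%, and the processed transcript Hdac2-204 took 40.7%, against 15.6% and 4.99%. Pbrm1-215, of 3137 bases, took 34.1% in library 3, against 60.8% and 56.2%. The division rests on the authors' model of how reads spread over overlapping transcripts and was not measured directly.

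Some of the highest values belonged to genes that share sequence with other genes. Of all 50-base stretches of the main transcript of Hdac1, 58.7% also occurred in transcripts of other genes, most of them in Gm10093, which was itself listed at 5.55, 4.52 and 4.13 TPM. The shares were 35.1% for Smarce1, 33.8% for Rbbp4, 33.3% for Pcgf1, 18.5% for Bmi1 and 11.4% for Rbbp7. The main other copies were pseudogenes, with the exception of Gm26722, a lincRNA, for Rbbp4. In the second gene table Hdac1, Smarce1 and Rbbp4 kept 6.31%, 5.89% and 26.4% of their expected counts, while the median member kept 55.9% and the median tested gene 46.2%. Cbx7 kept 10.1% although 1.79% of its stretches were shared. The part of shared sequence in these differences between tables was not tested. The authors' table gives a posterior SD of 0.29% of the count for Hdac1 and of at most 1.32% for any member. Levels and ranks of genes that the tables count so differently are uncertain.

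**Figure D5:**
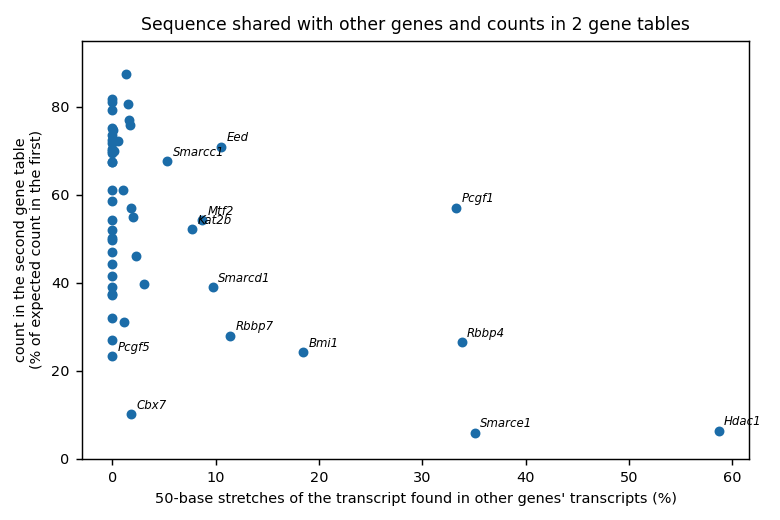
Count in the second gene table as a percent of the expected count in the first, against the percent of 50-base stretches of the main transcript found in transcripts of other genes, with 1 point per regulator. Hdac1 (58.7% shared, 6.31% kept) and Smarce1 (35.1% shared, 5.89% kept) lie lowest, Pcgf1 kept more at a like share, and most genes share next to nothing and kept from about 20% to 90%.

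Other subunits of the same complexes were widely detected as well. Of 94 listed partners 93 matched a gene, 85 were detected and 89 were deep enough to test. Of those 89, 66 differed between libraries, 39 with library 3 lowest and 19 with library 3 highest, where all tested genes gave 63.9%, 29.8% and 24.3%. The 6 highest were Sap18 and Sin3b of the SIN3 deacetylase complex, Dpf2 and Ss18 of BAF, Mta2 of the NuRD deacetylase complex and the sirtuin Sirt7. Sin3b, a scaffold, had 185.6 TPM in library 3, against 177.0 and 181.2 TPM, and did not pass. Mta2 had 59.9 TPM in library 3, against 203.2 and 181.9 TPM, and Sirt7 had 49.3 TPM, against 191.0 and 177.2 TPM. The subunits under 1 TPM in every library were Actl6b, Dpf1 and Dpf3, known from BAF complexes of neurons or muscle, and Bcl11a. The other partners not detected were Epop of PRC2, Smarcd3 of BAF and the deacetylase partners Hdac11 and Sap30. Their means were 0.93, 0.95, 0.84 and 0.54 TPM, and in library 3 they had 0.41, 0.21, 1.13 and 0 TPM.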

How the data were processed

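The members and lists were chosen with earlier results of these data known. Per the deposited text beside the files and the file headers, the authors gave expected counts, TPM, FPKM and a percent of gene TPM per transcript for GENCODE M21 on mm10, with the posterior SD of the count as another measure, and, in a second table, whole-number counts for genes of GENCODE M4. The sources used here name no aligner, counter or counting rule. The first table held 81881 rows. The 26345 that are no annotated gene (tRNA, ERCC and phiX174 entries) held 0.23% to 0.29% of counts and were left out. Totals were 6339932, 5775622 and 5056487 counts in the second table.

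Expected counts were rounded and scaled with edgeR 4.0.16 TMM factors in R 4.3.3. The Pearson chi-square test (2 degrees of freedom) took genes averaging 10 counts or more and was tested on simulated data. The reads carry no molecular identifiers, and the test allows for sampling error alone. By edgeR the common coefficient of variation between the libraries was 27.8%, and the source of this spread was not tested. Deviations use log2 CPM with 0.5 added to each count, and pair ratios log2(TPM + 1), which understates ratios of low genes. Detection was 1 TPM in each library. Stretches of 50 bases follow the read length inferred from length minus effective length, on either strand. The GC trend was a lowess curve (fraction 0.3) over protein-coding genes averaging 100 counts or more. DESeq2 1.42.0 gave alternative size factors; Python 3.11.15 and scipy 1.17.1 ran the rest. Other alternatives were total counts, other filters and limits, the second table, FPKM and leaving out each library.

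By rule, any member may be named. Values per library go to the ends of each complex, both genes of each pair, the 8 widest deviations, members with a noncoding leader, the 6 highest partners, those under 1 TPM, and markers. Partners match by symbol, and the second table by gene ID.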

Additional observations from a re-analysis of the deposited data

How the results depend on the processing

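The number of members that differed between libraries was 44 with DESeq2 size factors, with no filter and with a mean count of 50, 45 with total counts, and 36 in the second gene table (35 of them among the 44) and after removal of the GC trend. Leaving out 1 library gave 15 (without library 3) to 38, where 30.2% of all genes differed without library 3. The number detected was 52 at 0.5 TPM and 46 at 5 TPM. The median level was 34.8 TPM over nuclear protein-coding genes and 18.5 in FPKM, and 27.6 to 29.4 TPM with 1 library left out. The pair rule called 15 to 17 pairs. The leading transcript's share was 69.7% of counts, and 52.9% to 53.8% of TPM with 1 library left out. The deviation of library 3 changed sign with total counts for Hdac3 (0.008), Hdac6 (0.068) and Kmt2a (0.072, not called), and in the second table for Hdac3 (0.025) and Hdac6 (0.028). After removal of the GC trend it did so for Ezh1 (-0.012), Rbbp4 (-0.004), Crebbp (-0.207), Kmt2c (0.291), Kdm6b (0.401), Hdac6 (0.014), Smarca4 (0.129), Smarcb1 (0.122), Pbrm1 (0.272), Brd7 (0.443, called only then) and Hdac9 (-0.107, not called). Hdac1 over Hdac3 was -1.247 in the second table. The cause of these shifts was not tested. No paired analysis was possible because the series has 1 group. Counting error limits low members most, such as Phf19 with at least 38 counts a library.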
